A study of Strongylocentrotus purpuratus and Patiria miniata with 4 samples.

Results

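Among the peaks of Tbrain (Tbr) immunoprecipitation in sea urchin chromatin, those that were both wide and far from any other peak are described here. They are the peaks of 200 bp or more whose summit, the position of highest signal, lay more than 5000 bp from the nearest other summit, or which were the only peak of their scaffold. There were 237 such broad isolated peaks among the 3149 peaks of the sea urchin list, or 7.53%, and among 17126 peaks in the lists of both species. They were chosen by their measured width and spacing, which come from the same signal as every other value of a peak. The values below are therefore descriptions, and no test was made on them.

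The study asked where Tbr sits on chromatin in embryos of the purple sea urchin Strongylocentrotus purpuratus and of a sea star, the bat star Patiria miniata. It used chromatin immunoprecipitation and sequencing (ChIP-seq), in which an antibody pulls down the DNA fragments bound by a protein. The series has 4 samples, an immunoprecipitated (ChIP) library and an input library for each species. The sea urchin ChIP library (anti-SpTbr, a custom antibody) and the sea urchin input library (no antibody) both came from pooled whole embryos at mesenchyme blastula, 24 hours post fertilization, raised at 15 °C. The sea star ChIP library (anti-PmTbr, custom) and its input came from hatched blastulae at 30 hours, also raised at 15 °C. The labels name no mutation, transgene or drug in any sample. All samples were fixed in 1% formaldehyde and their chromatin was cut with micrococcal nuclease, an enzyme that digests DNA not protected by nucleosomes or other bound proteins. The ChIP chromatin was a pool of 2 to 3 separately fertilized cultures, so there is 1 biological replicate per species and replicate error cannot be given. Since whole embryos were used, a site bound in few cells and a site bound weakly in many cannot be told apart.

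Tbr belongs to the T-box family of transcription factors, which bind DNA through a conserved T-box domain. It is the echinoderm member of the subfamily that holds Tbr1, Eomes and T-bet of vertebrates. In sea urchins the tbr gene is part of the regulatory network of the skeletogenic mesenchyme, the cells that enter the blastocoel at mesenchyme blastula and later build the larval skeleton. Transcription factors usually bind short sites, and a single such site tends to give a peak not much wider than the sequenced fragments.

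Each peak is given by its scaffold and its 1-based start and end as the deposited list has them. The build of these scaffolds is unknown here, and genes and sequences near the peaks were not analysed here. The fold enrichment of a peak is the authors' value, the ChIP signal over the local background at the summit, with 1 added to each. It is therefore lower than the plain ratio of fragments to scaled input. The number of ChIP fragments overlapping the summit was computed from the deposited fold enrichment and p-value. The background was computed in the same way and is called scaled input, in units of ChIP fragments. It was set by 1 of 4 quantities, whichever was highest: the input reads in a window of 96 bp (1 fragment length), of 1 kb or of 10 kb around the summit, or the genome-wide mean of 1.51 fragments. The fragment length was taken as the width of the narrowest peak of a list. For the sea urchin, 1 input read in the 96 bp window added 0.572 to the scaled input. The genome-wide mean puts the depth at 15.8 ChIP reads and 27.6 input reads per kb, for a genome size that the peak caller was given and that is unknown here.

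Of the 3149 sea urchin peaks, 1930 (61.3%) were isolated, and 237 of these 1930 (12.3%) were broad. The other 1693 isolated peaks, 96 to 199 bp wide, are called narrow and serve as the comparison. The broad isolated peaks lay on 218 scaffolds out of the 1199 with a peak, with 1 such peak on 201 scaffolds, 2 on 15 and 3 on 2. They covered 68596 bp, or 13.1% of the 522794 bp in all sea urchin peaks. For 64 of the 237 (27.0%) the peak was the only one of its scaffold, as it was for 557 of the 1693 narrow peaks (32.9%). How far away the next peak lies is unknown for these.

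Most broad isolated peaks were only moderately wide. Their median width was 246 bp, with quartiles of 222 and 296 bp, against a median of 115 bp in the narrow ones. Under 300 bp fell 181 of them, 21 reached 400 bp and 10 reached 500 bp. The width minimum, equal to 2.08 fragment lengths, did not fall in a gap of the distribution. The 10 bp below it (190 to 199 bp) held 52 isolated peaks and the 10 bp above it (200 to 209 bp) held 29.

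The peaks on either side of the width limit overlapped in fragments and in fold enrichment. Just inside it stood the 200 bp peaks on Scaffold2907 at 58968 to 59167, with 11 fragments, and on Scaffold881 at 94781 to 94980, with 20. Next came a 201 bp peak on Scaffold34 at 1007152 to 1007352, with 17. These were enriched 4.63-fold, 4.20-fold and 4.72-fold. Other members were also 201 bp wide, and ties in width were taken in the order of peak names. The other 201 bp members were enriched less, from 2.45-fold on Scaffold1594 to 3.22-fold on Scaffold478. Just outside stood 199 bp peaks on Scaffold26 at 273374 to 273572, on Scaffold274 at 391931 to 392129 and on Scaffold419 at 171679 to 171877. These had 20, 15 and 15 fragments and fold enrichments of 2.49, 5.19 and 6.36.

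For the distance limit, the nearest members were on Scaffold281 at 391773 to 392144, Scaffold392 at 471226 to 471790 and Scaffold1140 at 39799 to 40231, whose nearest summits were 5042, 5088 and 5164 bp away. Their fold enrichments were 3.72, 5.36 and 4.32. The broad peaks just too close were a pair on Scaffold13, at 217839 to 218150 and 222852 to 223184, with summits 4994 bp apart and fold enrichments of 3.23 and 4.20. The next was on Scaffold468 at 430915 to 431248, 4974 bp from its neighbour, with a fold enrichment of 5.12.

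**Figure D1:**
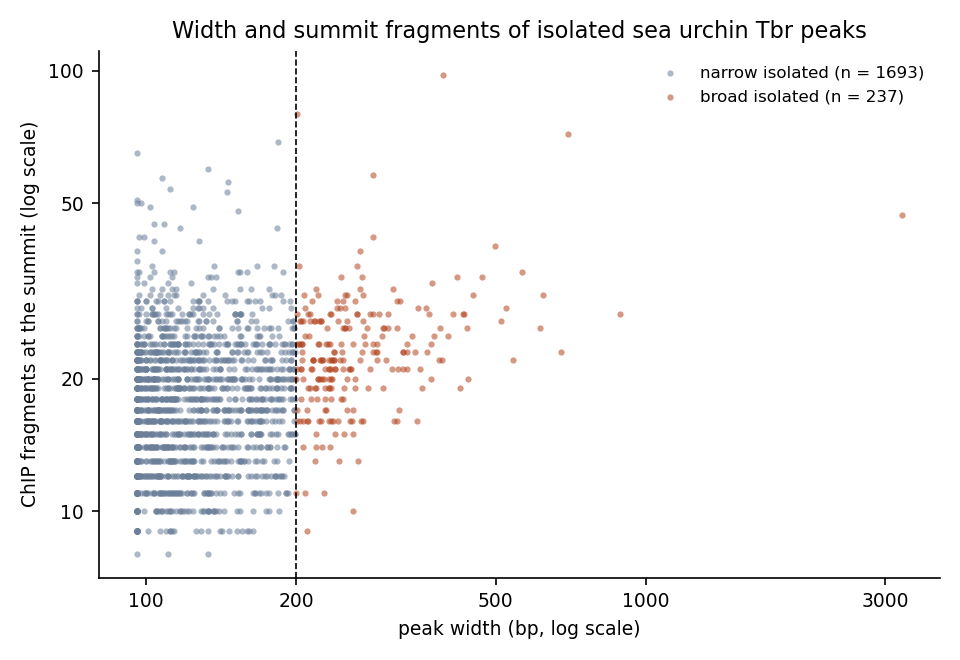
Width in bp (x axis, log scale) against ChIP fragments at the summit (y axis, log scale) for the 1930 isolated sea urchin peaks, 1 point per peak; the dashed line marks the width minimum of 200 bp. Broad peaks (red) have a median of 23 fragments and narrow ones (blue) a median of 18, and the point at the far right is the 3238 bp peak of Scaffold5086.

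The broad isolated peaks held more ChIP fragments than the narrow ones and lay over a higher input, and their median fold enrichment was close to that of the narrow ones. At the summit they had from 9 to 98 fragments, with a median of 23 (95% order-statistic interval over peaks 22 to 24) and quartiles of 19 and 27. The narrow isolated peaks had from 8 to 69, with a median of 18 (17 to 18). The scaled input had a median of 4.57 (4.002 to 5.15) under the broad peaks and of 3.43 under the narrow ones. The median fold enrichment was 4.08 (3.95 to 4.35) in the broad and 4.15 (4.09 to 4.23) in the narrow peaks, a difference of -0.06 with overlapping intervals. The 237 peaks ran from 2.104 to 29.04 in fold enrichment, with quartiles of 3.42 and 5.04. The sign of the small difference in fold enrichment turned with the width minimum: it was -0.37 at 150 bp, 0.22 at 250 bp and 0.28 at 300 bp. It was also positive with isolation over 20000 bp (0.07) and when only peaks whose −log10 q reached 10 were kept (0.49). Peak edges and summit fragments come from 1 signal, so width and fragments are not independent measures.

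Of the 237 broad isolated peaks, 62 (26.2%) were enriched 5-fold or more, beside 24.2% of all sea urchin peaks. Of the narrow isolated peaks, 391 of 1693 were (23.1%). A −log10 q of 10 or more was found in 27 broad isolated peaks (11.4%), beside 8.76% of all sea urchin peaks and 87 narrow isolated ones (5.14%). At the weak end, 41 of the 237 (17.3%) had a −log10 q under 3, beside 25.2% of all sea urchin peaks and 513 of the narrow isolated ones (30.3%). Of the 395 broad peaks that were not isolated, 33.2% were enriched 5-fold or more. Their −log10 q was 10 or more in 20.5% and under 3 in 11.4%.

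At equal numbers of fragments, up to 34, the median input under broad and narrow peaks differed by no more than 1 input read. Among isolated peaks with 20 to 24 fragments, the median scaled input was 4.57 in the 87 broad and 4.57 in the 413 narrow peaks. These were enriched 4.07-fold and 4.20-fold at the median. With 15 to 19 fragments the median scaled inputs were 3.47 in 50 broad and 3.43 in 549 narrow peaks, and the fold enrichments 3.999 and 4.11. With 25 to 29 fragments the inputs were 5.72 and 5.15, 1 input read (0.572) apart, and the fold enrichments 4.23 and 4.50 over 56 and 147 peaks. In each of the 5 classes up to 34 fragments the broad peaks had the lower median fold enrichment, with broad minus narrow differences from -0.27 to -0.11. At a given number of fragments, fold enrichment is set by the scaled input, so this is not a result separate from the inputs. The share of isolated peaks that were broad was 2.37% at 14 fragments or fewer, 8.35% at 15 to 19, 17.4% at 20 to 24, 27.6% at 25 to 29 and 28.4% at 30 to 34. At 35 fragments or more it was 22.9% (exact binomial 95% interval 12.03 to 37.3), 11 of 48 peaks.

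The class with 35 fragments or more looked different. There the median was 6.02-fold enrichment over a scaled input of 5.15 in the 11 broad peaks, and 3.37-fold over 12.6 in the 37 narrow ones. Among the 11 broad peaks were 3 whose background was the genome-wide mean. Without those, the median of the other 8 was 4.73-fold over an input of 6.86. That comparison was chosen after the values were seen.

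**Figure D2:**
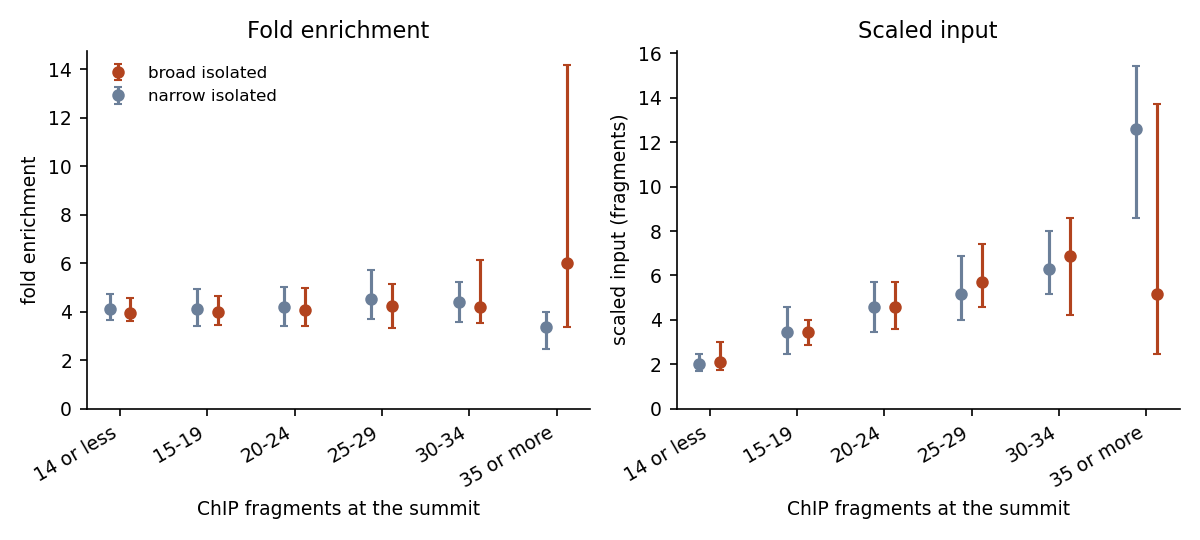
Median fold enrichment (left) and median scaled input in fragments (right) of broad (red) and narrow (blue) isolated peaks, by class of ChIP fragments at the summit; bars are quartiles over peaks. Up to 34 fragments the 2 groups lie close together, and they part in the class of 35 or more, which holds 11 broad and 37 narrow peaks.

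For most broad isolated peaks the background came from the summit itself. The 96 bp window set it in 176 of the 237 (74.3%, exact binomial 95% interval 68.2 to 79.7), the 1 kb window in 47, the 10 kb window in 7 and the genome-wide mean in 7. In the narrow isolated peaks the 96 bp window set it in 1115 of 1693 (65.9%, 63.5 to 68.1), and the genome-wide mean in 105 (6.20%). In the 176 broad peaks that window held from 3 to 65 input reads, with a median of 9 and quartiles of 7 and 12. In the 1115 narrow peaks the median was 7, with quartiles of 5 and 10. Among isolated peaks with 3 to 4 input reads in the window, 5 of 202 were broad (2.48%), while with 11 to 14 reads 43 of 199 were (21.6%, 16.1 to 27.98). With 15 reads or more it was 17 of 84 (20.2%). A peak over more input needs more ChIP fragments to be called, so input and fragments are tied in this list.

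The summits of broad isolated peaks lay at the middle of the peak less often than those of narrow ones. In narrow isolated peaks the summit lay between 0.4 and 0.6 of the width in 657 of 1693 (38.8%). In broad ones it did so in 30 of 237 (12.7%, exact binomial 95% interval 8.71 to 17.6). The positions of broad summits had maxima on either side, with 49 peaks (20.7%) between 0.2 and 0.3 of the width and 35 (14.8%) between 0.6 and 0.7, and 13 (5.49%) between 0.4 and 0.5. Before the midpoint lay 123 of the 237 summits (51.9%, 45.3 to 58.4). The rule did not use where in the peak the summit lay. It did use the width, by which this position is divided, and both edges come from the same signal.

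In bp, the median broad peak had its summit 66 bp from the nearer edge and 182 bp from the farther one. For narrow peaks these distances were 43 and 74 bp. The 68 peaks of 200 to 224 bp had medians of 55.5 and 154 bp. The distance to the nearer edge was 66.5 bp at 250 to 299 bp of width (54 peaks), 85 bp at 300 to 399 bp (35 peaks) and 172 bp at 400 bp or more (21 peaks). A summit at least 100 bp from both edges was found in 45 of the 237 peaks (18.99%), beside 145 of all 3149 sea urchin peaks (4.60%). A narrow peak is too short to have one. Of the 395 broad peaks that were not isolated, 100 (25.3%) had such a summit, so it is not particular to the isolated ones. These 45 had a median width of 357 bp, 26 fragments and a fold enrichment of 4.43, against 232 bp, 22 fragments and 4.12 in the 104 peaks with a summit under 60 bp from an edge.

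**Figure D3:**
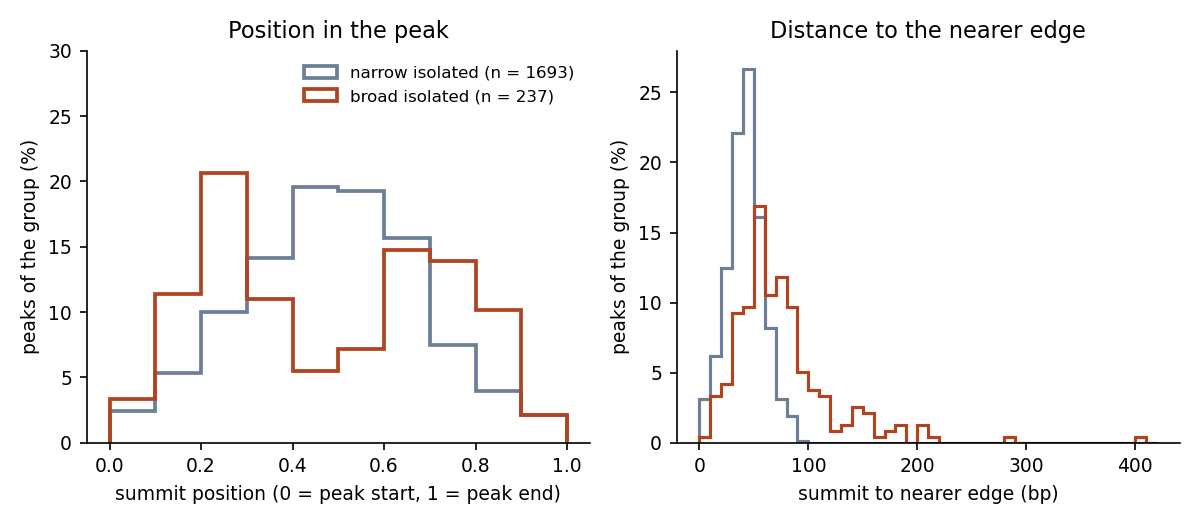
Left, position of the summit along the peak from start (0) to end (1); right, distance in bp from the summit to the nearer edge; y axes give the percent of 237 broad (red) or 1693 narrow (blue) isolated peaks per bin. Narrow peaks have their highest shares in the middle bins, while broad ones have maxima at 0.2 to 0.3 and at 0.6 to 0.8 of the width.

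Within the 237, the median fold enrichment was higher in each wider class, with overlapping quartiles, while fragments and −log10 q did not follow width step by step. The 68 peaks of 200 to 224 bp had a median of 22 fragments, a fold enrichment of 3.95 and a −log10 q of 4.86. The 59 peaks of 225 to 249 bp had fewer fragments, 21, and a lower −log10 q, 4.58, at a fold enrichment of 3.97. The 54 peaks of 250 to 299 bp had 24 fragments, a fold enrichment of 4.15 and a −log10 q of 5.19. The 35 peaks of 300 to 399 bp had 23 fragments, a fold enrichment of 4.41 and a −log10 q of 6.47. The 21 peaks of 400 bp or more had 28 fragments, a fold enrichment of 4.43 and a −log10 q of 8.21. The median scaled input of these 5 width classes, from narrowest to widest, was 4.29, 4.57, 4.59, 4.06 and 5.15.

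The 3 of the 237 with the highest fold enrichment stood apart from the rest in that value. The background was the genome-wide mean at every peak of their scaffolds, though Scaffold7987 and Scaffold16692 held only 1 peak each. It was so too at single peaks that were enriched less, such as that of Scaffold6612 (10.7-fold). The peak on Scaffold7987 at 7 to 704 had 72 ChIP fragments (exact Poisson 95% interval 56.3 to 90.7) and was enriched 29.04-fold. The peak on Scaffold16692 at 4 to 288 had 58 fragments (44.0 to 74.98) and was enriched 23.5-fold. The widest of all, 3238 bp on Scaffold5086 at 703 to 3940, had 47 fragments (34.5 to 62.5) and was enriched 19.1-fold. At each of the 3 summits a background at the genome-wide mean allows at most 2 input reads in 96 bp, 27 in 1 kb and 275 in 10 kb. The peaks of Scaffold7987 and Scaffold16692 were the only ones of their scaffolds and began within 10 bp of the scaffold's start. The peak of Scaffold5086 was isolated by its summit alone. That summit lay 104 bp from one edge and 3133 bp from the other, the nearest other summit was 5865 bp away and the nearest other peak began 2660 bp from its edge, on a scaffold with 37 peaks. Without these 3 peaks the remaining 234 had medians of 4.07 in fold enrichment and 22 in fragments.

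The rest of the 10 broad isolated peaks with the highest −log10 q had between 26 and 40 fragments. The peak on Scaffold6 at 540779 to 541277 was 499 bp wide, with 40 fragments (28.6 to 54.5) over 6 input reads in 96 bp, enriched 9.25-fold. The peak on Scaffold6612 at 42 to 339 had 26 fragments (17.0 to 38.1), with the genome-wide mean as background, and was enriched 10.7-fold. The peak on Scaffold424 at 304276 to 304490 had 30 fragments (20.2 to 42.8) over 4 input reads, enriched 9.43-fold. The other four of the 10 were enriched 8.21-fold or less.

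On Scaffold122 at 1141971 to 1142216 there were 34 fragments, over 64 input reads in 1 kb, a 7.76-fold enrichment. The peak on Scaffold401 at 557881 to 558148 had 39 fragments over 9 input reads in 96 bp, a 6.51-fold enrichment. The peak on Scaffold3006 at 38585 to 38854 had 34 fragments over 7 input reads, a 6.998-fold enrichment. The tenth, on Scaffold248 at 107359 to 107580, had 27 fragments over 439 input reads in 10 kb, an 8.21-fold enrichment. Since the counting intervals of these 7 summits overlap, they cannot be ranked by fragments.

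The other widest peaks ranged from the highest fold enrichment to one below the median. The peak on Scaffold1061 at 241765 to 242650 was 886 bp wide, with 28 fragments (18.6 to 40.5) over 6 input reads, enriched 6.55-fold. Its summit lay 406 bp from the nearer edge, near the centre, and the next summit of the scaffold was 179613 bp away. After the 698 bp of Scaffold7987 came the 675 bp peak on Scaffold292 at 341855 to 342529. It had 23 fragments over 10 input reads and was enriched 3.57-fold, below the median of the broad isolated peaks. The 623 bp peak on Scaffold1358 at 98929 to 99551 had 31 fragments over 77 input reads in 1 kb, enriched 6.12-fold.

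The 2 peaks with the most fragments had among the lowest fold enrichments. The peak on Scaffold1150 at 255392 to 255784 had 98 fragments (79.6 to 119) over 65 input reads in 96 bp, enriched 2.59-fold. The peak on Scaffold1594 at 7051 to 7251 had 80 fragments (63.4 to 99.6) over 56 input reads, enriched 2.45-fold. In both, the ChIP and the input library were high at the same place. The next highest inputs were at Scaffold1927, 26659 to 26943, with 42 fragments over 34 input reads, and at Scaffold2185, 36899 to 37102, with 27 over 21. The latter pair had the lowest fold enrichments of all 237, 2.104 and 2.15, and was picked with its values in view.

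Over peaks with any number of fragments, the share of broad peaks was lower where the nearest other summit was farther away, up to about 20 kb. Width and distance are both values by which the members were chosen. Of peaks with a neighbouring summit within 1000 bp, 199 of 592 were broad (33.6%, exact binomial 95% interval 29.8 to 37.6), and of those with one at 1001 to 5000 bp, 196 of 627 (31.3%, 27.6 to 35.1). Among isolated peaks the share was 50 of 186 (26.9%, 20.7 to 33.9) at 5001 to 10000 bp and 31 of 166 (18.7%, 13.1 to 25.4) at 10001 to 20000 bp. Beyond 20 kb it was 9.78% at 20001 to 50000 bp, 11.2% at 50001 to 100000 bp, 9.31% at 100001 to 200000 bp and 8.05% above that. Of the 621 single peaks, 64 were broad (10.3%, 8.03 to 13.0). These intervals cover counting error over peaks of 1 library only.

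Summit fragments moved with distance too, so the shares were also taken at equal fragments. Among peaks with 20 to 24 fragments, 44 of 166 were broad with a neighbour within 1000 bp (26.5%, 19.97 to 33.9) and 31 of 109 with one at 5001 to 20000 bp (28.4%, 20.2 to 37.9). Beyond 20000 bp it was 34 of 258 (13.2%, 9.30 to 17.9). With 25 to 29 fragments the corresponding shares were 46.4%, 40.4% and 22.0%, over 125, 47 and 100 peaks. With 15 to 19 fragments they were 22.6%, 12.7% and 8.45%, over 146, 102 and 296 peaks. The share was thus lowest beyond 20000 bp among these 3 distances in each of the 3 fragment classes. At 1001 to 5000 bp it was 15.5%, 30.6% and 45.1% with 15 to 19, 20 to 24 and 25 to 29 fragments. For peaks single on their scaffold it was 5.97%, 16.5% and 26.8%. Up to 20000 bp the shares thus lay between 26.5% and 30.6% at 20 to 24 fragments, and between 40.4% and 46.4% at 25 to 29.

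**Figure D4:**
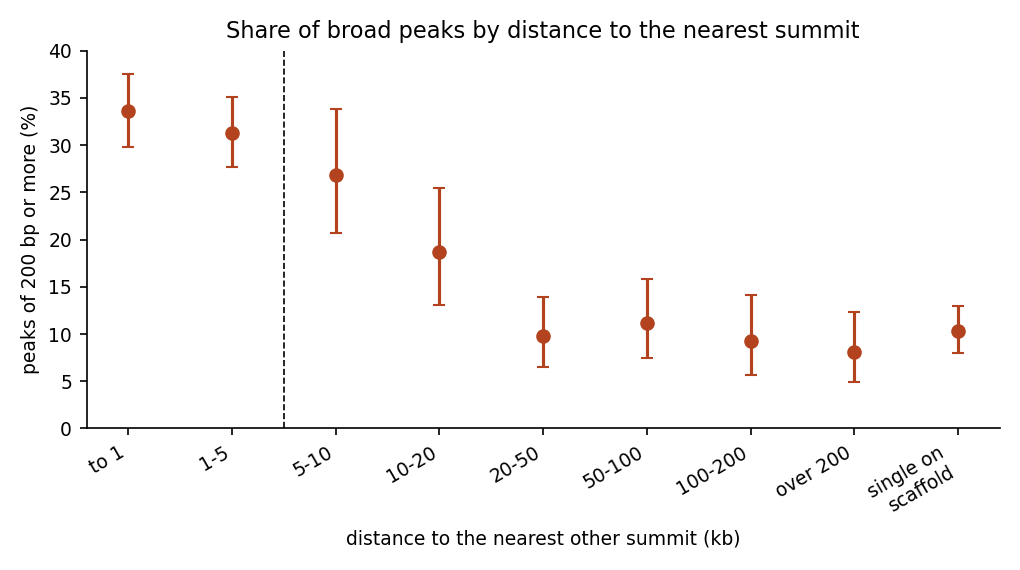
Percent of sea urchin peaks that are 200 bp or wider (y axis) by distance to the nearest other summit on the scaffold (x axis, kb), over all 3149 peaks; bars are exact binomial 95% intervals and the dashed line marks the isolation limit of 5 kb. The share is 33.6% within 1 kb and 26.9% at 5 to 10 kb, and lies between 8.05% and 11.2% beyond 20 kb.

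Broad peaks that were not isolated were wider and somewhat stronger than the isolated ones. The 395 of them had a median width of 280 bp (267 to 289), against 246 bp (238 to 253) in the 237. They had a median of 25 fragments (25 to 26), against 23 (22 to 24), and a fold enrichment of 4.32 (4.20 to 4.56), against 4.08 (3.95 to 4.35), where the intervals overlap. Their summits lay between 0.4 and 0.6 of the width in 50 of 395 (12.7%), as did 30 of the 237 (12.7%).

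Broad isolated peaks were a smaller part of the sea star list. By the same rule, 123 of 9745 isolated sea star peaks (1.26%) were broad, with a median width of 219 bp and none wider than 324 bp. Their median fold enrichment was 6.37, against 6.22 in the 9622 narrow isolated sea star peaks, and the medians of fragments were 31 and 26. The summit lay between 0.4 and 0.6 of the width in 17 of the 123 (13.8%), against 5540 of the 9622 (57.6%). The lists were cut at different limits, with a lowest −log10 q of 1.32 for the sea urchin and 2.98 for the sea star, and have fragment lengths of 96 and 84 bp, so the species are set side by side and not compared by a test.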

How the data were processed

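MACS2 2.1.0 is the peak caller that the submitters' processing notes name, beside Bowtie2 2.2.2, SAMtools 0.1.19 and CASAVA 1.8. Settings and genome build: not given in the sources used here. Each deposited list holds peaks called on 1 ChIP library. The deposited fold enrichment was taken as the ratio of the ChIP to the background signal at a summit, with 1 added to each. The deposited significance columns are −log10 p and −log10 q. The deposited score is a display value made from these and was not used further.

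The pileup of a peak, which the files do not state, was taken as the whole number (599 at most) whose upper Poisson tail matches the deposited −log10 p. The value was met within 0.001 in 100% of sea urchin peaks, with a next best error of at least 0.0109. The background was then read as steps of input reads in 96 bp, 1 kb or 10 kb. On 3149 simulated sea urchin peaks the pileup was recovered in 100% and the window in 98.8%. The simulation was built with the same formula, fragment length and windows, so it cannot check whether these hold for the deposited list. Steps of the windows can coincide, but whether this gave the misses was not tested. Single pileups have exact Poisson 95% intervals, shares exact (Clopper-Pearson) binomial 95% intervals and medians order-statistic intervals. Those of pileups and shares cover counting error only, and those of medians reflect the spread among peaks only. None covers error between replicates, since peaks of 1 library are not replicates. Reads carry no molecular identifiers.

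Peaks named are the top 10 by −log10 q, the top 5 by fold enrichment, the 5 widest, the 5 with most fragments, the 3 on either side of each limit and those of the scaffolds with most members. The members and lists were chosen with earlier results of these data known. Analyses ran in Python 3.11.15 with numpy 2.4.6, pandas 2.3.3 and scipy 1.17.1. Gene and sequence analyses were not run, because the gene table at hand is of an assembly that the files do not name.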

Additional observations from a re-analysis of the deposited data

How the results depend on the processing

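The width minimum moved the count of broad isolated peaks from 237 to 592 at 150 bp, 110 at 250 bp and 56 at 300 bp. The median fold enrichment was then 3.91, 4.36 and 4.42, the median fragments 20, 25 and 25.5, and the broad minus narrow difference in median fold enrichment -0.37, 0.22 and 0.28. Isolation over 20000 bp left 156 peaks, with a broad minus narrow difference in median fold enrichment of 0.07. A difference from -0.278 to 0.153 was counted as unchanged from the main one of -0.06. A −log10 q of 5 or more left 125, with a median fold enrichment of 4.97 and 26 fragments. A −log10 q of 10 or more left 27, with a median fold enrichment of 6.998, 30 fragments and a scaled input of 3.43. The broad minus narrow differences were then 0.49 in fold enrichment and 0.19 in scaled input. These limits choose on the same signal, which by construction shifts these values. The difference in median scaled input was positive under the 11 alternatives run for it. Isolation over 2000 or 10000 bp, leaving out single-peak scaffolds, and, for the medians, leaving out the strongest scaffolds at the genome-wide mean or peaks in the first 300 bp of a scaffold kept counts within 1.5 times and medians within their 95% intervals. With distances taken between peak edges 233 of the 237 were kept. No paired analysis was possible because there is a single library per group, which also leaves no replicate to drop. Depth limits single peaks: the median broad isolated peak rests on 23 fragments.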

Other observations

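The nearest peak of a broad isolated peak was itself broad about as often as that of a narrow isolated peak, with overlapping intervals. Of the 173 with a neighbour on their scaffold, it was broad in 33 (19.1%, exact binomial 95% interval 13.5 to 25.7). For the 1136 narrow isolated peaks with a neighbour it was broad in 192 (16.9%, 14.8 to 19.2). With the neighbour at 5001 to 20000 bp these shares were 19 of 81 (23.5%) and 71 of 271 (26.2%). Peaks that were each other's nearest, such as those on Scaffold990 and on Scaffold213, were counted from both ends. The counts are therefore not independent, and the binomial intervals, which take each peak as separate, do not hold exactly. The median distance to the nearest summit was 23331 bp for the broad and 58172 bp for the narrow isolated peaks.

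Scaffold122 and Scaffold362 each held 3 broad isolated peaks, the most on any scaffold. On Scaffold362 these were the only peaks of the scaffold, at 326647 to 327019, 339786 to 340059 and 348100 to 348368, with 33, 24 and 16 fragments and fold enrichments of 3.55, 4.49 and 5.17. On Scaffold122, with 10 peaks in all, they lay at 135049 to 135312, 1141971 to 1142216 and 1179578 to 1179789, with 36, 34 and 25 fragments and fold enrichments of 4.11, 7.76 and 3.87. Within Scaffold362 the order by fragments was the reverse of the order by fold enrichment, over 15, 8 and 4 input reads in 96 bp.

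Of the 237 broad isolated peaks, 4 (1.69%, 0.462 to 4.26) began in the first 300 bp of a scaffold, and so did 8 of 1693 narrow ones (0.473%, 0.204 to 0.929). The 4 lay on Scaffold7987, Scaffold16692, Scaffold6612 and Scaffold3674, and 3 of them were among the 5 broad isolated peaks with the highest fold enrichments. The fourth, on Scaffold3674 at 260 to 517, had 16 fragments over 8 input reads and a fold enrichment of 3.05. A background at the genome-wide mean was found at 7 broad isolated peaks (2.95%), beside 5.72% of all sea urchin peaks. The share was 6.20% in narrow isolated and 7.34% in broad not isolated peaks. This mean is the lowest background possible here, so it raises fold enrichment at a given number of fragments. The 7 were the 3 with the highest fold enrichments and those on Scaffold6612, Scaffold23681, Scaffold2224 and Scaffold23537. The latter were enriched 10.7-fold, 8.35-fold, 7.56-fold and 6.36-fold. The peaks of this paragraph were picked with their values in view.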
